A study of Homo sapiens with 9 samples.

Results

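The genes described here are those of the amino acid stress response: *ATF4*, the genes that it is known to activate, and the regulators that act on it. A list of 36 genes was named for these known roles, and its members were chosen with earlier results of these data known. Of the 36 genes, 34 were listed in at least 1 of the deposited count tables and 33 in both, out of 13017 genes for sh1-*TUG1*, 12953 for sh2-*TUG1* and 12854 in both. *CHAC1* was listed for sh2-*TUG1* only, and the expression of *VEGFC* and *DDR2* was not analysed here.

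RNA-seq was performed on HepG2 cells, an established human liver cancer line, in which short hairpin RNAs against the long non-coding RNA *TUG1* were expressed. Cells carried sh-Con (a control hairpin, genotype labelled WT), sh1-*TUG1* and sh2-*TUG1* (2 different hairpins against *TUG1*), with 3 libraries each. All groups carried a doxycycline-inducible lentiviral hairpin vector (Tet-pLKO-Puro) and were grown in low-glucose medium with added L-glutamine, and the sources used here do not say whether a line was 1 clone or a pool. The replicates are described as technical, so the SD and the p-values may measure only the spread between preparations of 1 culture. Both comparisons with sh-Con used the same 3 control libraries. *TUG1* itself was not analysed here, so the labels could not be checked against the targeted gene.

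When amino acids run short or unfolded protein builds up in the endoplasmic reticulum, the kinases GCN2 (*EIF2AK4*) and PERK (*EIF2AK3*) phosphorylate the translation factor eIF2α. Most protein synthesis then slows, while the mRNA of *ATF4* is translated more, and so the *ATF4* mRNA level does not by itself report the amount of ATF4 protein. ATF4 binds elements in the promoters of genes for amino acid synthesis, amino acid uptake, tRNA charging and stress signalling. In liver cells these genes support protein secretion and amino acid metabolism.

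The element that ATF4 binds together with C/EBP proteins was searched for as TGATGNAA on both strands in the 250 bases upstream of the gene start (RefSeq, GRCh38.p14). Promoters of 27 of the 36 genes were matched. The pattern was found in 5 of the 27 (18.5%), and in 1104 of 35116 promoters of the same length (3.14%). A letter match is a description and not a binding site, and the genes were named as targets of ATF4 in the first place. The sequences below show each of the 5 matches in capitals, read 5′ to 3′ in the direction of the gene, and in *AARS*, *IARS* and *CHAC1* the pattern lies on the opposite strand.
*ATF3* (chr1:212565205-212565234, plus strand): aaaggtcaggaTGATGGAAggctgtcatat
*ASNS* (chr7:97872458-97872487, minus strand): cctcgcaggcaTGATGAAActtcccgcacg
*AARS* (chr16:70289675-70289704, minus strand): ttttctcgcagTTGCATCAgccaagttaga
*IARS* (chr9:92293698-92293721, minus strand): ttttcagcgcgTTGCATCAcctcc
*CHAC1* (chr15:40953251-40953280, plus strand): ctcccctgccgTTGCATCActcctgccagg
The match lies 13 bases upstream of the start in *IARS*, 68 in *ASNS*, 187 in *AARS*, 191 in *ATF3* and 209 in *CHAC1*. The windows of *ASNS*, *IARS* and *CHAC1* also lie within annotated exons of these genes, and that of *AARS* within an exon of its neighbour *DDX19B* (GENCODE 29). The element ERSE, through which ATF6 acts on chaperone genes, was found in 0 of the 27 promoters and in 26 of all promoters (0.074%). With so rare a pattern, 27 promoters are too few to tell the list from other genes. The 5 genes with a TGATGNAA match did not share a direction in the results given below.

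The libraries held 33051617 to 39393293 counts over the listed genes. Levels are given as CPM (counts scaled to a common library size) after TMM normalization, which is not corrected for gene length, so levels were compared between groups and not between genes. A change is a log2 fold change with its standard error (SE). A gene passed when its p in the quasi-likelihood test of edgeR, adjusted by Benjamini and Hochberg's method over every gene tested, was below 0.05, and it was a differentially expressed gene (DEG) when its fold change was also over 1.5. As each library holds the RNA of a whole culture, less RNA per cell and fewer cells that hold it cannot be told apart. All 12 hepatocyte markers looked for were listed, and their levels summed to 50343 to 53078 CPM in sh-Con, 53814 to 56080.1 CPM in sh1-*TUG1* and 55970 to 59583 CPM in sh2-*TUG1*. *ALB* alone went from a mean of 13505 CPM in sh-Con to 25387 CPM in sh2-*TUG1*. Of the 12 markers, 6 rose and 3 fell in sh1-*TUG1*, and 3 rose and 7 fell in sh2-*TUG1* (medians 0.12 and −0.28). Among all genes 12.5% rose and 12.3% fell in sh1-*TUG1*, and 21.6% rose and 21.9% fell in sh2-*TUG1*. Of 14 markers of blood, endothelial, stromal and biliary cells, 6 were listed and *PTPRC*, *CD14*, *COL1A1*, *COL1A2*, *COL3A1*, *DES*, *VIM* and *KRT7* were not. Their summed level was 601 to 651 CPM in sh-Con, 534 to 547 CPM in sh1-*TUG1* and 408 to 425 CPM in sh2-*TUG1*, and *KRT19* alone went from a mean of 351 CPM in sh-Con to 172 CPM in sh2-*TUG1*. Of the 6, *KRT19* (−0.33 and −1.03) and *CD68* (−0.86 and −1.61, from a mean of 63.7 CPM in sh-Con) fell in both lines. *VWF* rose in both (1.40 and 1.65), from a low mean of 1.49 CPM in sh-Con. *ACTA2* rose in sh1-*TUG1* (0.27) and *EPCAM* in sh2-*TUG1* (0.16). The part of these markers in the results was not tested.

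The 2 hairpins gave different patterns. In sh1-*TUG1*, 4 of the 33 genes tested rose and 8 fell, and 21 did not pass. Their median change was −0.04 on the log2 scale, against 0.00 for all genes, and of all genes 12.5% rose and 12.3% fell. In sh2-*TUG1*, 13 of the 34 genes tested rose and 6 fell, and 15 did not pass. The median here was 0.11, against −0.01 for all genes, and of all genes 21.6% rose and 21.9% fell. *CHAC1* was listed in this table through the sh2-*TUG1* libraries, as given below. It is counted among the 34 and the 15 and enters the median.

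The changes were small. The only DEG of the list in sh1-*TUG1* was *NUPR1*, which rose, where 2.44% of all genes were rising and 2.52% falling DEGs. The only one in sh2-*TUG1* was *SLC3A2*, which also rose, where 4.35% of all genes were rising and 8.97% falling DEGs. When sh2-*TUG1* was tested directly against sh1-*TUG1*, 14 of 33 genes were higher in sh2-*TUG1* and 4 were lower, where 21.0% of all genes were higher and 21.7% lower. In this comparison *PPP1R15A*, *ATF3* and *SLC3A2* were DEGs with the higher level in sh2-*TUG1*, and no gene of the list was a DEG with the lower level there, where 2.56% of all genes were higher and 8.04% lower DEGs.

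**Figure D1:**
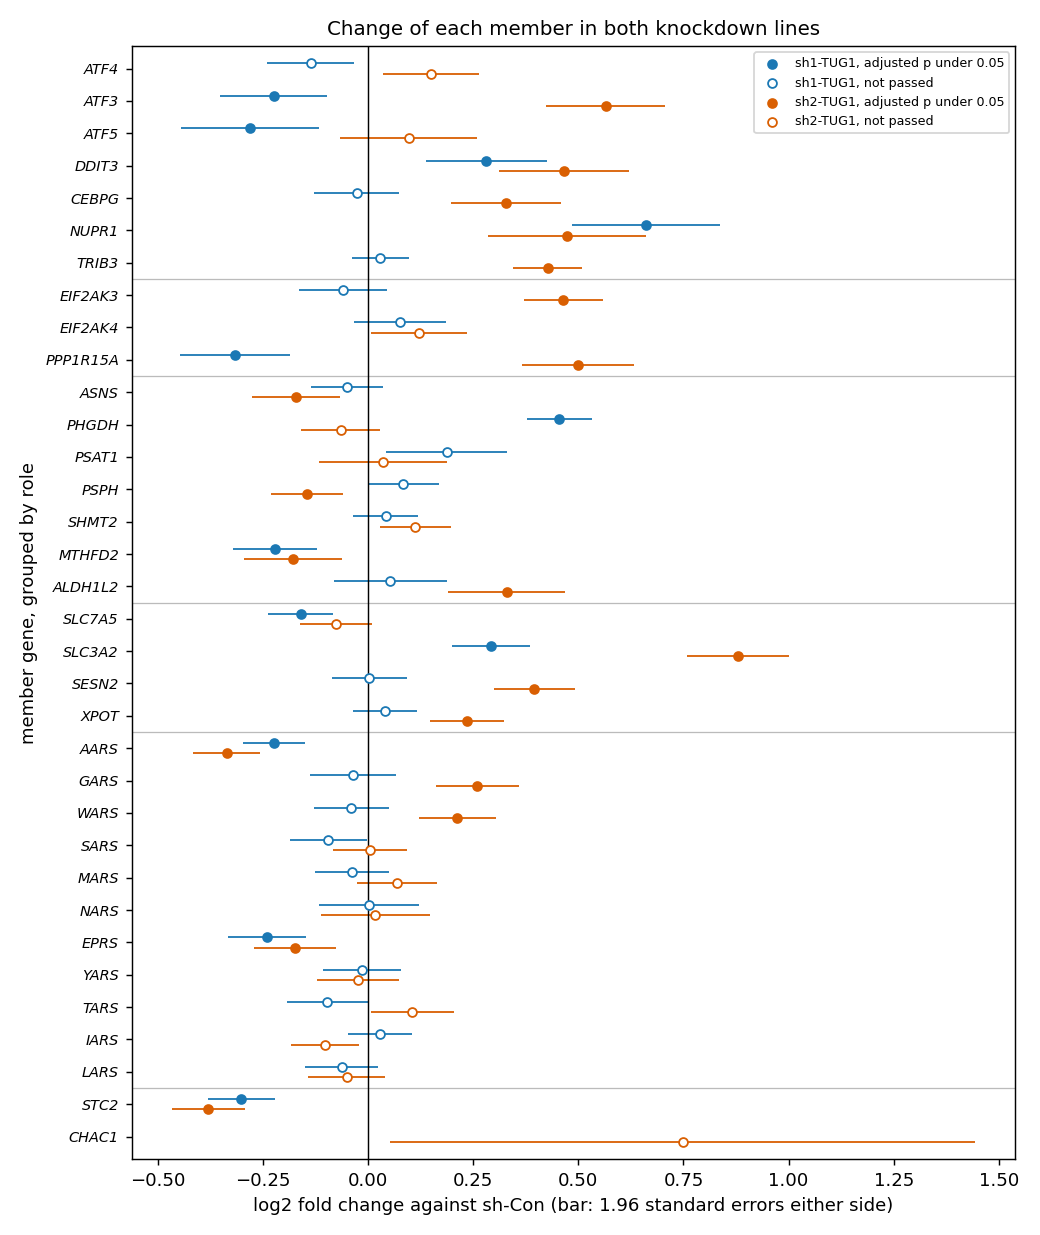
Log2 fold change of each gene against sh-Con (horizontal axis) in sh1-*TUG1* (blue) and sh2-*TUG1* (orange), with genes ordered by role. Bars are 1.96 standard errors either side, and filled points passed at an adjusted p below 0.05. *ATF3* and *PPP1R15A* lie below 0 in sh1-*TUG1* and above 0 in sh2-*TUG1*, both filled. The call of *ATF3* in sh1-*TUG1* was lost in 5 of 6 fits without 1 library.

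*ATF4* (ENSG00000128272, GRCh38, chr22:39519695-39522685) encodes the transcription factor at the centre of the response. Its mRNA stood at 664, 621 and 572 CPM in sh-Con, at 561, 576 and 553 CPM in sh1-*TUG1* and at 661, 692 and 711 CPM in sh2-*TUG1*. The range of the control libraries overlapped that of each knockdown line, while the sh1-*TUG1* and sh2-*TUG1* libraries did not overlap each other. The log2 fold change was −0.14 (SE 0.0529, adjusted p = 0.0892) in sh1-*TUG1* and 0.15 (SE 0.0584, adjusted p = 0.0623) in sh2-*TUG1*, and neither passed. The difference between the lines, 0.29 (SE 0.0524), passed with an adjusted p of 0.00101. Without sh-Con replicate 3 the value in sh1-*TUG1* was −0.20 (adjusted p = 0.0223), and without sh-Con replicate 1 the value in sh2-*TUG1* was 0.20 (adjusted p = 0.00926). In a fit of all 9 libraries the value in sh2-*TUG1* also passed (adjusted p = 0.0309), as it did with DESeq2 (adjusted p = 0.0354).

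*ATF3* (ENSG00000162772, chr1:212565334-212620777) encodes a factor induced by ATF4 and by other stress signals. Its level was 49.9, 55.2 and 55.9 CPM in sh-Con. It was 43.6, 46.6 and 47.8 CPM in sh1-*TUG1* and 83.5, 82.3 and 72.8 CPM in sh2-*TUG1*. Each group lay apart from the others, with sh1-*TUG1* lowest and sh2-*TUG1* highest. *ATF3* rose by 0.57 (SE 0.0723, adjusted p = 0.000252) in sh2-*TUG1*, and the difference between the lines was 0.79 (SE 0.0681, adjusted p = 4.15e-06). Its change of −0.22 (SE 0.0645, adjusted p = 0.0309) in sh1-*TUG1* did not pass without sh-Con replicate 2 or 3, or without any 1 of the sh1-*TUG1* replicates (adjusted p up to 0.118), nor with library size alone as the scaling (adjusted p = 0.0553).

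*NUPR1* (ENSG00000176046, chr16:28532708-28539174), a small stress-induced nuclear protein, rose in both lines. It was at 56.4, 51.5 and 43.3 CPM in sh-Con, at 78.1, 85.2 and 75.9 CPM in sh1-*TUG1* and at 66.0, 67.5 and 76.5 CPM in sh2-*TUG1*. Every knockdown library was above every control library, and the knockdown lines overlapped each other. The log2 fold change was 0.66 (SE 0.0898, adjusted p = 0.000707) in sh1-*TUG1*, a fold of 1.58, and 0.47 (SE 0.0962, adjusted p = 0.0035) in sh2-*TUG1*. Without sh-Con replicate 3, which had the lowest level, the change in sh1-*TUG1* was 0.56 and no longer over 1.5-fold.

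Of the other regulators, *DDIT3*, which encodes the stress factor CHOP, rose in both lines. Its mean level was 95.6 ± 9.08 CPM (SD, n = 3) in sh-Con, 116 ± 6.51 CPM in sh1-*TUG1* and 132 ± 9.59 CPM in sh2-*TUG1*, with changes of 0.28 (adjusted p = 0.0206) and 0.47 (adjusted p = 0.00127). The rise in sh1-*TUG1* did not pass without sh-Con replicate 3, sh1-*TUG1* replicate 1 or sh1-*TUG1* replicate 3 (adjusted p up to 0.08). *DDIT3* overlaps *MARS* by 982 bases and *MBD6* by 1028 bases on the other strand, and the sources used here do not say whether reads were counted by strand. The respective values of *MBD6* were 0.09 and 0.40, and those of *MARS* −0.04 and 0.07.

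*TRIB3*, a pseudokinase induced by ATF4 that acts back on it, was at 824, 815 and 809.9 CPM in sh-Con, at 826, 845 and 832 CPM in sh1-*TUG1* and at 1108, 1128 and 1063 CPM in sh2-*TUG1*. The sh2-*TUG1* libraries stood above all others. *TRIB3* rose by 0.43 (SE 0.0415, adjusted p = 4.91e-05) in sh2-*TUG1*, and its change in sh1-*TUG1*, 0.03, did not pass. *CEBPG*, a partner of ATF4 on DNA, rose by 0.33 (adjusted p = 0.00347) in sh2-*TUG1*, where its mean level was 220.5 ± 16.9 CPM against 175 ± 9.9 CPM in sh-Con, and did not pass in sh1-*TUG1* (−0.03). *ATF5*, a related factor, had a change of −0.28 (adjusted p = 0.035) in sh1-*TUG1* and 0.10 (adjusted p = 0.374) in sh2-*TUG1*, and its level was 0.38 higher in sh2-*TUG1* than in sh1-*TUG1* (adjusted p = 0.00218). Its call in sh1-*TUG1* was lost without sh-Con replicate 2 or any 1 of the sh1-*TUG1* replicates (adjusted p up to 0.105) and with library size alone (adjusted p = 0.0511). *ATF5* overlaps *NUP62* by 1062 bases on the other strand, and *NUP62* changed by −0.12 and 0.17.

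**Figure D2:**
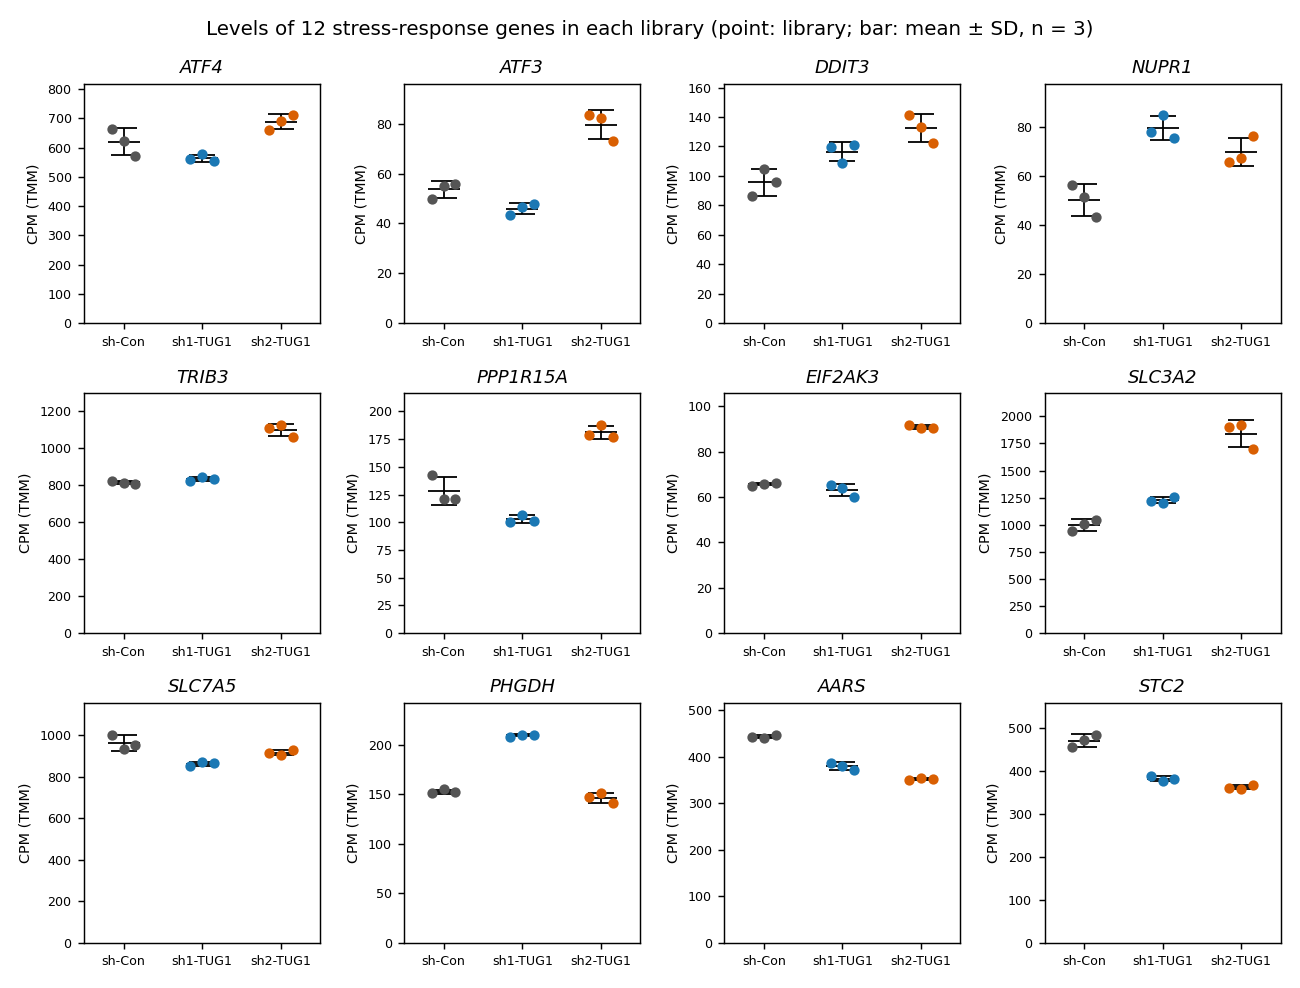
Level of 12 of the genes in CPM (vertical axis, from 0) in every library of the 3 groups; each point is a library and the bars give the mean ± SD of 3. *NUPR1* lies higher in both knockdown lines, *TRIB3* and *EIF2AK3* in sh2-*TUG1*, *PHGDH* in sh1-*TUG1*, and *AARS* and *STC2* lie lower in both.

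Of the 3 genes of the list that act on eIF2α itself, 0 rose and 1 fell in sh1-*TUG1*, and 2 rose in sh2-*TUG1*. Among all genes 12.5% rose and 12.3% fell in sh1-*TUG1*, and 21.6% rose in sh2-*TUG1*. Other genes that act on eIF2α, outside the list and the rule for naming, also changed. *EIF2AK2* rose in both lines (0.24 and 0.28) and *PPP1R15B* in sh2-*TUG1* (0.52), while *EIF2AK1* passed in neither line. *PPP1R15A* (ENSG00000087074, chr19:48872392-48876057) encodes GADD34, the stress-induced phosphatase subunit that removes the phosphate from eIF2α. Its level was 142, 121 and 121 CPM in sh-Con. It was 100.5, 107 and 101.4 CPM in sh1-*TUG1* and 179, 188 and 177 CPM in sh2-*TUG1*. The groups did not overlap. *PPP1R15A* fell by 0.32 on the log2 scale (SE 0.0668, adjusted p = 0.00773) in sh1-*TUG1* and rose by 0.50 (SE 0.0678, adjusted p = 0.00036) in sh2-*TUG1*. The difference between the lines was 0.82 (SE 0.063, adjusted p = 1.85e-06), a fold of 1.76, and both changes passed without any 1 library.

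*EIF2AK3* (ENSG00000172071), the gene of PERK, was at 65.1, 66.0 and 66.2 CPM in sh-Con, at 65.3, 64.1 and 60.0 CPM in sh1-*TUG1* and at 92.0, 90.3 and 90.5 CPM in sh2-*TUG1*. Only the sh2-*TUG1* libraries stood apart. The change was 0.47 (SE 0.0482, adjusted p = 7.02e-05) in sh2-*TUG1* and −0.06 (adjusted p = 0.457) in sh1-*TUG1*. *EIF2AK4*, the gene of GCN2, did not pass in either line (0.08 and 0.12) or between them (0.05, with an interval of 1.96 SE either side from −0.05 to 0.15).

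Of 7 enzymes of amino acid synthesis and of the folate pathway, 1 rose and 1 fell in sh1-*TUG1*, and 1 rose and 3 fell in sh2-*TUG1*. Among all genes 12.5% rose and 12.3% fell in sh1-*TUG1*, and 21.6% rose and 21.9% fell in sh2-*TUG1*. *PHGDH* (ENSG00000092621, chr1:119648411-119744226), the first enzyme of serine synthesis, was at 151, 155 and 152 CPM in sh-Con, at 208, 210.2 and 211 CPM in sh1-*TUG1* and at 147, 151 and 141 CPM in sh2-*TUG1*. The sh1-*TUG1* libraries were above all others. *PHGDH* rose by 0.46 (SE 0.0394, adjusted p = 5.26e-05) in sh1-*TUG1*, had a value of −0.07 (adjusted p = 0.298) in sh2-*TUG1*, and was below its sh1-*TUG1* level in sh2-*TUG1*, with a log2 difference of −0.52 (SE 0.0395, adjusted p = 1.74e-06).

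*PSAT1*, the next enzyme of serine synthesis, which makes phosphoserine, did not pass in either line (0.19 and 0.04, adjusted p = 0.0939 and 0.742). Its value in sh1-*TUG1* passed with DESeq2 (adjusted p = 0.0396) and without sh-Con replicate 2 (adjusted p = 0.0445). *PSPH*, which releases serine, changed by 0.08 (adjusted p = 0.188) in sh1-*TUG1* and by −0.15 (adjusted p = 0.0239) in sh2-*TUG1*. Between the lines it was lower in sh2-*TUG1* (−0.23, adjusted p = 0.000743). Its call in sh2-*TUG1* was lost without sh-Con replicate 2 or any 1 of the sh2-*TUG1* replicates (adjusted p up to 0.074) and with the replicate number as a block (adjusted p = 0.078).

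*ASNS*, which makes asparagine and is widely used as a reporter of ATF4 activity, was at 264, 283 and 278 CPM in sh-Con, at 265, 272 and 261 CPM in sh1-*TUG1* and at 258, 244 and 233 CPM in sh2-*TUG1*. The sh2-*TUG1* libraries were the lowest, and the sh1-*TUG1* libraries overlapped the control. The change was −0.05 (adjusted p = 0.444) in sh1-*TUG1* and −0.17 (SE 0.0531, adjusted p = 0.0261) in sh2-*TUG1*. The call was lost without sh-Con replicate 2 or 3 or sh2-*TUG1* replicate 2 or 3 (adjusted p up to 0.0885) and with the replicate block (adjusted p = 0.0602).

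Among the mitochondrial folate enzymes, *MTHFD2* had values of −0.22 (adjusted p = 0.0112) in sh1-*TUG1* and −0.18 (adjusted p = 0.0348) in sh2-*TUG1*. The call in sh1-*TUG1* was lost without sh1-*TUG1* replicate 2 (adjusted p = 0.0591). That in sh2-*TUG1* was lost without sh-Con replicate 2 or 3 or any 1 of the sh2-*TUG1* replicates (adjusted p up to 0.125) and with the replicate block (adjusted p = 0.054). *SHMT2*, which moves a carbon unit from serine to folate, did not pass in either line (0.04 and 0.11, adjusted p = 0.48 and 0.0594), but passed in sh2-*TUG1* in the fit of 9 libraries (adjusted p = 0.022) and with DESeq2 (adjusted p = 0.0441). *ALDH1L2*, which oxidizes formyl-folate, rose by 0.33 (adjusted p = 0.00456) in sh2-*TUG1*, from 44.5 ± 3.93 to 56.0 ± 1.49 CPM, and did not pass in sh1-*TUG1* (0.05). The gene *C12orf45* overlaps *ALDH1L2* by 54414 bases on the other strand and changed by 0.24 and −0.17.

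*SLC3A2* (ENSG00000168003, chr11:62856102-62888875) encodes the heavy chain CD98 that carries several amino acid transporters to the cell surface. It was at 939.8, 1010.0 and 1047 CPM in sh-Con, at 1216, 1203 and 1256 CPM in sh1-*TUG1* and at 1906, 1923 and 1696 CPM in sh2-*TUG1*. The groups did not overlap, and the order was sh-Con, sh1-*TUG1*, sh2-*TUG1*. *SLC3A2* rose by 0.29 (SE 0.0473, adjusted p = 0.00188) in sh1-*TUG1* and by 0.88 (SE 0.0616, adjusted p = 6.56e-06) in sh2-*TUG1*, a fold of 1.84. The difference between the lines was 0.59 (SE 0.0539, adjusted p = 6.59e-06), which lay just over the fold change of 1.5, and it ranged from 0.56 to 0.64 when 1 library was left out.

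*SLC7A5*, the light chain LAT1 that pairs with CD98 and imports large neutral amino acids, was at 1004, 932 and 954 CPM in sh-Con, at 853, 871 and 865 CPM in sh1-*TUG1* and at 914, 905 and 929 CPM in sh2-*TUG1*. All libraries of both knockdown lines were below all control libraries. The change was −0.16 (SE 0.0394, adjusted p = 0.016) in sh1-*TUG1* and −0.08 (SE 0.0432, adjusted p = 0.184) in sh2-*TUG1*. The call in sh1-*TUG1* was lost without any 1 of the sh1-*TUG1* replicates (adjusted p up to 0.0704).

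*SESN2*, a leucine sensor that restrains mTORC1, rose by 0.40 (SE 0.0491, adjusted p = 0.000212) in sh2-*TUG1*, where its libraries stood at 210.0, 212 and 201 CPM against 162, 151 and 159.7 CPM in sh-Con. In sh1-*TUG1* it was at 158, 162 and 155 CPM, within the spread of the control. *XPOT*, which exports tRNA from the nucleus, rose by 0.24 (adjusted p = 0.00241) in sh2-*TUG1* and had a value of 0.04 (adjusted p = 0.496) in sh1-*TUG1*.

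The 11 cytosolic aminoacyl-tRNA synthetases of the list load tRNAs with their amino acids. In sh1-*TUG1* 0 of them rose and 2 fell, and in sh2-*TUG1* 2 rose and 2 fell, with medians of −0.04 and 0.01. The shares in sh2-*TUG1*, 18.2% and 18.2%, were near those of all genes (21.6% and 21.9%). In sh1-*TUG1* 18.2% fell, where 12.5% of all genes rose and 12.3% fell. *AARS* (ENSG00000090861, alanine) was at 442, 441 and 448 CPM in sh-Con, at 388, 381 and 372 CPM in sh1-*TUG1* and at 349.9, 355 and 352 CPM in sh2-*TUG1*. The groups did not overlap. *AARS* fell by 0.22 (SE 0.0376, adjusted p = 0.00235) in sh1-*TUG1* and by 0.34 (SE 0.0403, adjusted p = 0.000169) in sh2-*TUG1*. Its difference between the lines, −0.11 (adjusted p = 0.0212), did not pass without replicate 1 or 2 of either knockdown line (adjusted p up to 0.0849).

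*EPRS* (glutamate and proline) had values of −0.24 (adjusted p = 0.0055) in sh1-*TUG1* and −0.17 (adjusted p = 0.0185) in sh2-*TUG1*, the latter lost without sh-Con replicate 2 or sh2-*TUG1* replicate 1 or 2 (adjusted p up to 0.0724). *GARS* (glycine) and *WARS* (tryptophan) rose in sh2-*TUG1* by 0.26 (adjusted p = 0.00275) and 0.21 (adjusted p = 0.00491), and did not pass in sh1-*TUG1* (both −0.04). *TARS* (threonine) and *IARS* (isoleucine) passed in neither line against sh-Con. The value of *IARS* in sh2-*TUG1*, −0.10 (adjusted p = 0.0678), passed in the fit of 9 libraries (adjusted p = 0.0386) and with library size alone (adjusted p = 0.02). That of *TARS* in sh2-*TUG1*, 0.11 (adjusted p = 0.115), passed without sh-Con replicate 1 (adjusted p = 0.0466). Between the lines *TARS* was higher in sh2-*TUG1* (0.20, adjusted p = 0.00486) and *IARS* had a value of −0.13 (adjusted p = 0.0129), which did not pass without sh1-*TUG1* replicate 1 (adjusted p = 0.0599). *SARS*, *MARS*, *NARS*, *YARS* and *LARS* did not pass in any of the 3 comparisons, with values between −0.09 and 0.11. Between the lines, however, *MARS* passed in a fit of 6 libraries (adjusted p = 0.028), with DESeq2 (adjusted p = 0.0426) and without sh-Con replicate 1 (adjusted p = 0.0189). There *SARS* passed without sh1-*TUG1* replicate 1 (adjusted p = 0.0408).

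*STC2* (ENSG00000113739, chr5:173314713-173329503), a secreted glycoprotein induced by stress in the endoplasmic reticulum, fell in both lines. It was at 455, 472 and 485 CPM in sh-Con, at 387, 377 and 382 CPM in sh1-*TUG1* and at 361, 359 and 368 CPM in sh2-*TUG1*. Every knockdown library was below every control library, and the knockdown lines did not overlap. The values were −0.30 (SE 0.0409, adjusted p = 0.000704) and −0.38 (SE 0.0444, adjusted p = 0.000149). The difference between the lines, −0.08 (adjusted p = 0.117), did not pass. It passed with library size alone (adjusted p = 0.0124) and without sh-Con replicate 1 (adjusted p = 0.0471).

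*CHAC1*, which degrades glutathione and is often used as a marker of ATF4 and CHOP activity, had few reads. It had 19, 43 and 20 counts in sh-Con, against 42, 53 and 44 counts in sh2-*TUG1*, and these ranges overlapped. These counts correspond to 0.572, 1.26 and 0.532 CPM in sh-Con and 1.28, 1.57 and 1.13 CPM in sh2-*TUG1*. The tables list only genes with at least 1 CPM in 3 libraries, so *CHAC1* entered through the sh2-*TUG1* libraries. The log2 fold change was 0.75 (SE 0.355, adjusted p = 0.116) and did not pass. Without sh-Con replicate 2, the control library with 43 counts, it was 1.26. As the listing rested on the sh2-*TUG1* libraries, where the level was high, neither value can test for a rise of *CHAC1*.

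**Figure D3:**
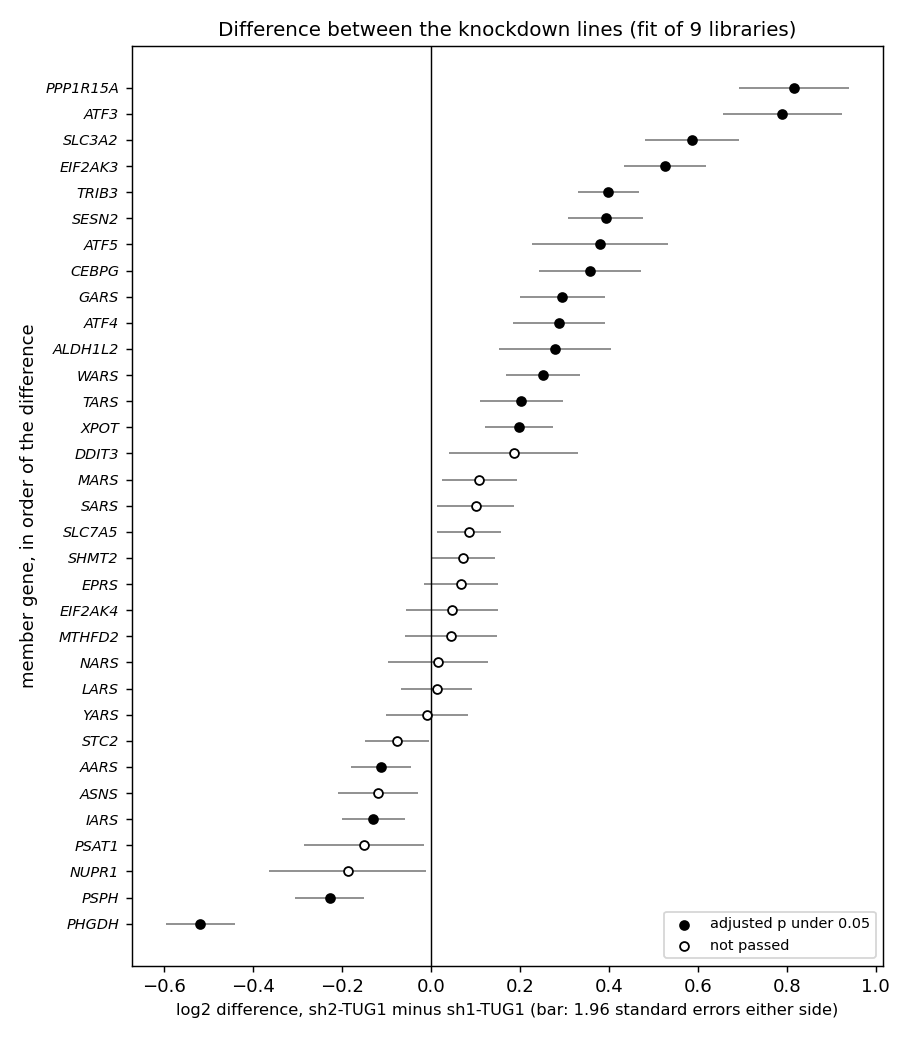
Log2 difference of each of the 33 genes listed in both tables, sh2-*TUG1* minus sh1-*TUG1* (horizontal axis), in order of the difference. Bars are 1.96 standard errors either side and filled points passed at an adjusted p below 0.05; 14 filled points lie above 0 and 4 below, from −0.52 for *PHGDH* to 0.82 for *PPP1R15A*.

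By role, the genes of the list higher in sh2-*TUG1* than in sh1-*TUG1* were 5 of 7 transcription factors and regulators. So were 2 of 3 genes acting on eIF2α, 3 of 4 genes of transport and nutrient sensing, 3 of 11 synthetases (27.3%) and 1 of 7 enzymes (14.3%). Among all genes 21.0% were higher. The genes that were lower were *PHGDH*, *PSPH*, *AARS* and *IARS* (12.1% of the 33, against 21.7% of all genes). The median difference over the 33 genes was 0.10, against 0.00 for all genes.

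Genes near the list were described in the same way. As background, 12.5% of all genes rose and 12.3% fell in sh1-*TUG1*, and 21.6% rose and 21.9% fell in sh2-*TUG1*. Of 26 other known targets of ATF4 tested, 5 rose and 5 fell in sh1-*TUG1* (median 0.00), and 11 rose and 3 fell in sh2-*TUG1* (median 0.12). *SLC38A2*, the amino acid transporter SNAT2, rose by 0.60 (SE 0.082) in sh2-*TUG1* and had a value of 0.01 in sh1-*TUG1*, which was −0.09 (adjusted p = 0.0364) without sh-Con replicate 1. *SLC6A9*, a glycine transporter, rose in both lines (0.28 and 0.62). *DDIT4*, an inhibitor of mTORC1, fell in both (−0.58 and −0.74), as did *GDF15*, a stress-induced hormone (−0.65 and −0.27).

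Of 12 other cytosolic synthetases and scaffold proteins, 1 rose and 5 fell in sh1-*TUG1* (8.33% and 41.7%). In sh2-*TUG1* 2 rose and 3 fell (16.7% and 25.0%). Among all genes 12.5% rose and 12.3% fell in sh1-*TUG1*, and 21.6% rose and 21.9% fell in sh2-*TUG1*. Of 17 mitochondrial synthetases, which are encoded by separate genes, 0 rose and 1 fell in sh1-*TUG1* (median 0.00), and 1 rose and 9 fell in sh2-*TUG1* (median −0.21). *HARS2*, the mitochondrial histidine enzyme, fell in both lines (−0.46 and −0.71). Among 14 genes of eIF2 and its partners, 1 rose and 3 fell in sh1-*TUG1*, and 4 rose and 2 fell in sh2-*TUG1*. *IMPACT*, an inhibitor of GCN2, fell by 0.98 (SE 0.133) in sh2-*TUG1*, from 11.7 ± 1.43 CPM in sh-Con. Its value in sh1-*TUG1*, −0.48 (adjusted p = 0.0199), did not pass without sh-Con replicate 2 or 3 or sh1-*TUG1* replicate 1 or 2 (adjusted p up to 0.0746).

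The other arms of the unfolded protein response, which run through ATF6 and through IRE1 and XBP1, had the largest median difference between the lines among these lists. This list, too, was chosen with earlier results of these data known. Of 18 genes, 1 rose and 11 fell in sh1-*TUG1* (median −0.17), where 12.5% of all genes rose and 12.3% fell. In sh2-*TUG1* 9 rose and 2 fell (median 0.18), where 21.6% of all genes rose and 21.9% fell. Between the lines 16 of the 18 were higher in sh2-*TUG1* and 0 were lower (median 0.36), where 21.0% of all genes were higher and 21.7% lower. No gene of this list met the rule for naming, and the following were chosen after their values were seen. The chaperone gene *HSPA5* (BiP) had a value of −0.37 (adjusted p = 7.09e-05) in sh1-*TUG1* and 0.05 (adjusted p = 0.333) in sh2-*TUG1*. *DNAJB9*, a co-chaperone, fell by 0.44 (adjusted p = 0.000452) in sh1-*TUG1* and rose by 0.28 (adjusted p = 0.00316) in sh2-*TUG1*. *XBP1* rose in both lines (0.25 and 0.47, adjusted p = 0.00299 and 5.5e-05).

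**Figure D4:**
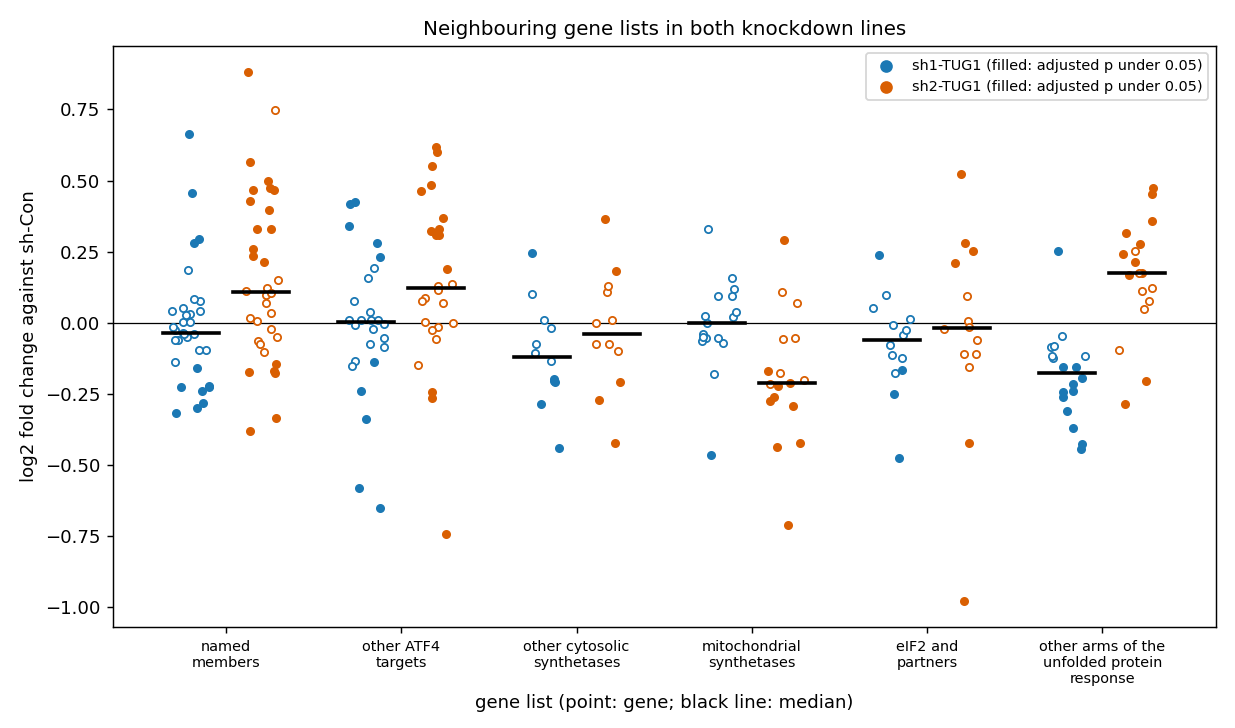
Log2 fold change against sh-Con (vertical axis) of each gene of 6 lists in sh1-*TUG1* (blue) and sh2-*TUG1* (orange); each point is a gene, filled at an adjusted p below 0.05, and the black line is the median. In the list of other unfolded protein response genes the median is −0.17 in sh1-*TUG1* and 0.18 in sh2-*TUG1*.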

How the data were processed

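The 9 HepG2 libraries (3 per group) were grouped by their labels. The authors deposited 1 table per knockdown line, with unnormalized read counts per gene, FPKM values and their own comparison (a false discovery rate and a log2 fold change). Their counts were used. The deposited FPKM values and their comparison were not. The submitters' processing notes name HISAT2, StringTie and GRCh38. The counting tool and its strand setting are not given in the sources used here.

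The comparison of each line with sh-Con used its own 6 libraries, and that between the lines all 9, with edgeR 4.0.16 (TMM, quasi-likelihood test, R 4.3.3) and Benjamini-Hochberg adjustment over all genes. SE is the absolute log2 fold change divided by the square root of F. CPM came from the scaling of 9 libraries, and for *CHAC1* from 6. Genes took positions from GENCODE 29, where 11 genes of the list have pseudogenes of their name, whose reads may be shared. The fits were tested on simulated data. Alternatives were DESeq2 1.42.0, other scalings, filters and fits, a replicate block, glmTreat and leaving out each library.

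The members and all lists were chosen with earlier results of these data known. Every gene of the list may be named. From other lists, up to 4 genes per direction were named, by mean change over both lines, among DEGs of at least 1 line. Per-library values were given for DEGs and for genes that a description turns on. With 3 libraries per group and at least 33051617 counts in each, the spread between libraries sets the error of all but the lowest levels.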

Additional observations from a re-analysis of the deposited data

Results flagged for a closer look

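The levels of the 2 knockdown lines differed for 18 of the 33 genes in the test of sh2-*TUG1* against sh1-*TUG1*. This was 1 fit of 9 libraries, where 21.0% of all genes were higher and 21.7% lower. Because the control is shared, the difference between the lines' changes against sh-Con is this difference in level. With 1 line per hairpin, effects of hairpin, line and culture cannot be told apart. The log2 difference was 0.82 for *PPP1R15A*, 0.79 for *ATF3*, 0.59 for *SLC3A2* and 0.53 for *EIF2AK3*. It was 0.40 for *TRIB3*, 0.39 for *SESN2*, 0.38 for *ATF5* and 0.36 for *CEBPG*. Smaller values were 0.30 for *GARS*, 0.29 for *ATF4*, 0.28 for *ALDH1L2*, 0.25 for *WARS*, 0.20 for *TARS* and 0.20 for *XPOT*. The level was lower in sh2-*TUG1* for *PHGDH* (−0.52), *PSPH* (−0.23), *IARS* (−0.13) and *AARS* (−0.11). Of these genes, *ATF3* and *PPP1R15A* passed with opposite signs against sh-Con in the separate comparisons. Both calls of *PPP1R15A* passed without any 1 library. The fall of *ATF3* in sh1-*TUG1* (adjusted p = 0.0309) was lost in 5 of the 6 fits without 1 library (adjusted p up to 0.118). It was also lost with library size alone (adjusted p = 0.0553).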

How the results depend on the processing

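Of 49 calls made for genes of the list over the 3 comparisons, 44 passed under every other setting and 38 without any 1 library. Of the comparisons of a gene that did not pass, 11 passed under at least 1 other setting and 13 without at least 1 library. *CHAC1* is among the 13, though its listing rested on the sh2-*TUG1* libraries. The sh1-*TUG1* count of DEGs that rose was 0 with glmTreat and 0 to 1 without 1 library (0 without sh-Con replicate 3). The 8 genes that fell in sh1-*TUG1* were 4 to 8 without 1 library (5, 4 and 5 without sh1-*TUG1* replicates 1, 2 and 3). The 6 genes that fell in sh2-*TUG1* were 3 with the replicate block and 2 to 6 without 1 library (2 without sh-Con replicate 2 or sh2-*TUG1* replicate 2, and 3 without sh2-*TUG1* replicate 1 or 3). The 1 DEG that rose in sh2-*TUG1* became 1 to 3 DEGs without 1 library. There were 3 without sh-Con replicate 2, *CHAC1* among them, and 2 without sh-Con replicate 3 or sh2-*TUG1* replicate 3. Between the lines, the 4 lower genes were 7 in a fit of 6 libraries and 8 with library size alone. Without 1 library they were 2 to 7 (7 without sh-Con replicate 1, 2 without sh1-*TUG1* replicate 1). The median of 0.10 was 0.037 with library size alone, where the median of all genes also moved, from −0.001 to −0.065. *SLC38A2* in sh1-*TUG1* ranged from −0.09 to 0.07 without 1 library. The shares of all genes that passed under each of these settings are not given here. The counts above therefore cannot be set against all genes, and the cause of these changes was not tested. Same-numbered libraries correlated at −0.33 to 0.0113, so the numbers were not taken to pair the samples, and the block ended the calls of *ASNS*, *PSPH* and *MTHFD2* in sh2-*TUG1* and no other call of a gene of the list. Filters on low counts removed 0 genes, as the tables list only genes with 1 CPM in 3 libraries. These filters could therefore not end any of the 49 calls, and the count of 44 rests on the remaining settings. *CHAC1*, at 19 to 53 counts, is limited by depth.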
